A study of Mus musculus with 8 samples.

Results

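Of the 18193 genes measured in gonadal white fat, 34 encode plasma proteins and enzymes that mouse liver makes in bulk. All 34 were found under a platform symbol of their own; where a gene had several probe sets, the one brightest on average was taken. The members were chosen by name, with their log2 levels on these 8 arrays known, so those levels are given as a description. The 8 arrays hold RNA from gonadal fat of mice aged 10 weeks, 1 array per sample: 4 aP2-Pex5 -/- knockouts (labelled 6, 8, 9 and 10) and 4 wild-type controls (1, 2, 3 and 4), on a Swiss background per the submitters. Pex5 imports enzymes into the peroxisome. The aP2 promoter is active in adipocytes. Whether Pex5 was also lost in other cells of the tissue cannot be read from these arrays. Every array was strongly positive for adipocyte genes; adiponectin (Adipoq) read 14.48, 14.43, 14.50 and 14.54 in knockouts 6, 8, 9 and 10, against 14.50, 14.55, 14.63 and 14.51 in controls 1, 2, 3 and 4. All values are RMA expression on the log2 scale, where a difference of 1 is a doubling.

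Hepatocytes secrete most of the proteins of blood plasma, including albumin, the clotting factors, most protease inhibitors and the apolipoproteins of high-density lipoprotein. They also hold the urea cycle and the enzymes that break down tyrosine and tryptophan. These genes are switched on together by a small set of transcription factors, among them HNF1 and HNF4 and the C/EBP family. White fat is known to make some of these products itself, but albumin, fibrinogen and transthyretin are classical liver messages.

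The upstream sequences of 5 members with large swings between arrays, and of 2 with small ranges (Vtn at 1.43 and Cyp2e1 at 0.41), are shown because HNF1 and C/EBP are the textbook regulators of this gene class. The 5 are not those with the largest ranges: Ttr, at 6.69, is not shown. All 5 hold GTTAAT, as does Vtn, so this choice says nothing on a link between motif and swing. Each is the 250 bases before the RefSeq start on GRCm38.p6, 5′ to 3′ on the gene's own strand. Capitals mark GTTAAT, the core of an HNF1 site, and TTGCNNAA, a C/EBP-type motif, each searched on both strands; the 2 motifs do not overlap in these sequences.
Alb, chr5:90460620-90460869, plus strand: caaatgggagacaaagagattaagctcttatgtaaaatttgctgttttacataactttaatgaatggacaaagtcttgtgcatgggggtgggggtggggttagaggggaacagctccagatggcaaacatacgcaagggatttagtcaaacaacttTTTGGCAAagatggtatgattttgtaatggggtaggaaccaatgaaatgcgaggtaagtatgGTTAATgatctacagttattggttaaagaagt
Fga, chr3:83025903-83026152, plus strand: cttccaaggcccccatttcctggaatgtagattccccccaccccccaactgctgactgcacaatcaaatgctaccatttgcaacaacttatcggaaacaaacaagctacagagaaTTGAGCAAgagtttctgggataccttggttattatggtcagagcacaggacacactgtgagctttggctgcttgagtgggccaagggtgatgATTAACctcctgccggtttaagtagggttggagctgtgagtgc
Fgb, chr3:83049864-83050113, minus strand: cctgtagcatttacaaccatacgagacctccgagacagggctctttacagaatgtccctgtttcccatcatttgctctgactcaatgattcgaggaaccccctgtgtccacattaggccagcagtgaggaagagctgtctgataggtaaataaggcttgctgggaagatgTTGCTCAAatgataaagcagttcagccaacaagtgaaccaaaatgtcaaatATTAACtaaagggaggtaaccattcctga
Fabp1, chr6:71199629-71199878, plus strand: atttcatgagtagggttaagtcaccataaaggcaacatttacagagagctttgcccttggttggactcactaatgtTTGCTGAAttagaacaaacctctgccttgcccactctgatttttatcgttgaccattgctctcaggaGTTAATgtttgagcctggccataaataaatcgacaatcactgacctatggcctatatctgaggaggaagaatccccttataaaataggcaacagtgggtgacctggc
Serpina1c, chr12:103904951-103905200, minus strand: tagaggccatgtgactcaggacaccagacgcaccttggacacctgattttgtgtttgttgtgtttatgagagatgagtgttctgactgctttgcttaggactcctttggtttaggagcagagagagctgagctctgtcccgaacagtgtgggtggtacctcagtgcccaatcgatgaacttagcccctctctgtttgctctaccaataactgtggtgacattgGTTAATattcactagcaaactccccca
Vtn, chr11:78498870-78499119, plus strand: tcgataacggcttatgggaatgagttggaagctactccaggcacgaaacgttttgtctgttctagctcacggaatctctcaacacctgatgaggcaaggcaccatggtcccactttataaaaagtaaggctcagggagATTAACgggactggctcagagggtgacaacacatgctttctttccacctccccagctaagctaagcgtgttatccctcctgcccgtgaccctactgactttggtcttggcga
Cyp2e1, chr7:140763569-140763818, plus strand: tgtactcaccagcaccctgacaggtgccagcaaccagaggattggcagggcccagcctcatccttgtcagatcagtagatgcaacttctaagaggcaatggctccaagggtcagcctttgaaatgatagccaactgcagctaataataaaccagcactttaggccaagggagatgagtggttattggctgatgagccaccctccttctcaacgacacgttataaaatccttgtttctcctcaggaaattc

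The table of promoters used held 27 of the 34 members. GTTAAT stood in the 250 bases before the start of 7 of these 27 (25.9%; Alb, Fabp1, Fga, Fgb, Itih1, Serpina1c and Vtn), and in 6.43% of all 32851 promoters. TTGCNNAA stood in 8 of the 27 (29.6%; Ahsg, Alb, Apoa2, Fabp1, Fga, Fgb, Hpx and Hrg), and in 9.56% of all promoters. Both motifs stood in Alb, Fabp1, Fga and Fgb (14.8% of the 27 members, 0.77% of all promoters). A match is a run of letters and not a mapped binding site.

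The members swung together between arrays, and the swings crossed the genotype groups. Their median was 7.23, 6.17, 5.36 and 5.81 in knockouts 6, 8, 9 and 10, against 9.42, 6.67, 6.18 and 5.46 in controls 1, 2, 3 and 4. Control 1 stood highest, knockout 6 next and control 2 after it, and both groups also held an array at the bottom of the range. The median of all 18193 genes moved little, between 7.48 and 7.68 over the arrays. In bulk tissue, fewer cells of a type and less RNA per cell cannot be told apart.

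**Figure D1:**
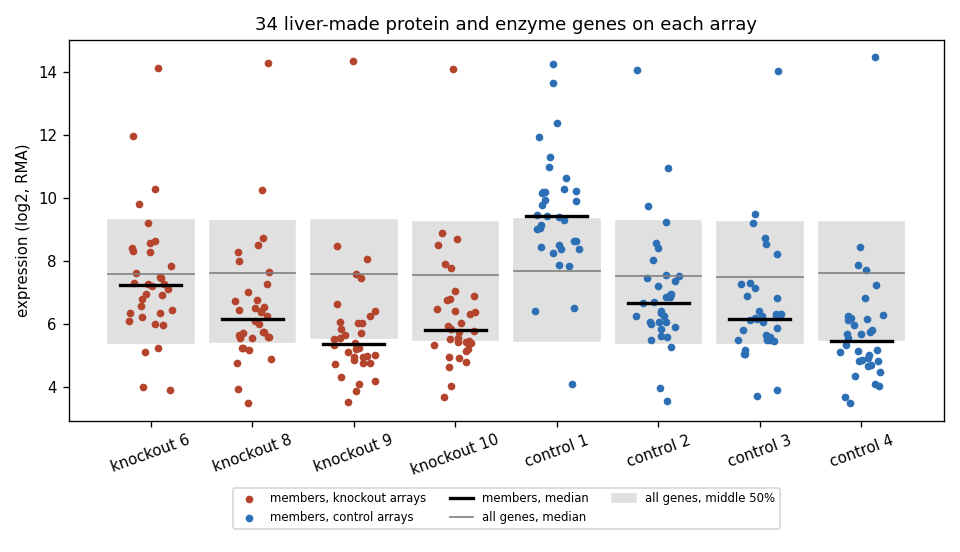
Expression (log2, RMA) of the 34 members on each of the 8 arrays, knockouts left and controls right; each point is 1 gene, the black bar is the members' median, and the grey band and line are the interquartile range and the median of all genes. The members' median reaches 9.42 on control 1 and falls to 5.36 on knockout 9 and 5.46 on control 4, while the grey bands stay level.

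Control 1 was the highest array for 32 of the 34 members, Ass1 and Cyp2e1 being the exceptions; it was the highest array for 14.2% of all genes. Knockout 6 came second for 25 members (11.3% of all genes), all of which had control 1 first, an order found in 1.83% of all genes. Knockout 9 or control 4 was the lowest array for 28 members, against 19.8% of all genes. The range over the 8 arrays was at least 2 in 29 members (3.52% of all genes) and at least 4 in 17 (0.649%). Without control 1 the range was still at least 2 in 15 members (2.81%). Knockout 6 was at least 1 above knockout 9 in 22 members (1.07% of all genes) and control 2 in 18 (0.846%). Control 4 was at least 0.5 above knockout 9 in 1 member, Ttr (3.72% of all genes), and at least 0.5 below it in 1, Ahsg (3.27%). These shares describe the pattern by which such genes were listed and carry no weight as a test.

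Among the carrier proteins, Alb, the main protein of plasma, read 11.97, 10.25, 8.06 and 8.89 in knockouts 6, 8, 9 and 10, against 13.64, 10.95, 9.20 and 7.87 in controls 1, 2, 3 and 4. Ttr, which carries thyroxine and retinol-binding protein, read 9.81, 8.51, 5.25 and 7.78 in those knockouts, against 11.94, 9.24, 8.53 and 6.17 in the controls. Ahsg, the mineral-binding protein fetuin-A, read 7.30, 6.24, 5.56 and 5.83 in the knockouts, against 9.94, 6.95, 6.31 and 5.03 in the controls. In all 3 genes control 1 and knockout 6 were the high arrays, knockout 9 and control 4 the low ones, and the groups overlapped. Hpx, which binds free haem, had a range of 4.55 and the same high and low arrays.

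The clotting and adhesion proteins held the fibrinogen chains, which form the clot. Fga read 7.27, 5.73, 4.09 and 5.34 in knockouts 6, 8, 9 and 10, against 10.17, 6.69, 5.65 and 4.05 in controls 1, 2, 3 and 4. Fgg read 7.61, 6.01, 5.11 and 5.53 in the knockouts, against 10.17, 6.92, 6.34 and 4.84 in the controls. On both genes the knockout arrays lay inside the control range. Fgb, the third chain, ranged over 4.77, against 6.11 for Fga and 5.33 for Fgg. Kng1 (kininogen, range 4.81), Apoh (a phospholipid-binding protein, 4.25), Plg (plasminogen, 3.62) and F2 (prothrombin, 3.40) had the same 2 arrays on top. Hrg, histidine-rich glycoprotein, was 7.86 on control 1 and between 6.05 and 6.37 on the other 7 arrays.

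Of the protease inhibitors, Serpina1c, one of the mouse alpha-1-antitrypsins, read 10.30, 8.72, 6.40 and 8.69 in knockouts 6, 8, 9 and 10, against 12.37, 9.75, 9.49 and 6.26 in controls 1, 2, 3 and 4. It belongs to a cluster of near-identical copies, so its probe set may also read its neighbours. Serpinc1 (antithrombin) ranged over 4.54 and Ambp, the precursor of bikunin, over 4.03. The heavy chains of the inter-alpha-trypsin inhibitor moved less, with ranges of 3.44 for Itih4, 3.05 for Itih3 and 1.58 for Itih1. Itih3 did not keep the common order below control 1. It read 6.81, 6.51, 6.04 and 6.33 in the knockouts, against 8.51, 5.90, 5.47 and 6.28 in the controls, so that control 3 was its lowest array.

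In the lipid-handling group, Fabp1, the fatty acid carrier of the hepatocyte and gut cell cytosol, had the widest range of all members at 6.93. It read 8.42, 6.46, 4.19 and 5.21 in knockouts 6, 8, 9 and 10, against 10.62, 7.46, 6.21 and 3.69 in controls 1, 2, 3 and 4. Apoa1, the main protein of high-density lipoprotein, read 8.56, 7.28, 5.52 and 6.80 in the knockouts, against 10.99, 8.04, 7.27 and 5.82 in the controls. Apoa2 ranged over 4.67, also with control 1 first, knockout 6 second and knockout 9 last. Apoa5, an activator of triglyceride breakdown, was 7.84 on control 1 and between 5.40 and 6.02 elsewhere.

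Of the amino acid enzymes, Cps1, which starts the urea cycle, read 7.26, 5.56, 4.98 and 4.81 in knockouts 6, 8, 9 and 10, against 10.27, 6.06, 5.50 and 4.71 in controls 1, 2, 3 and 4. Arg1, arginase, the last enzyme of that cycle and also a product of some macrophages, was 8.25 on control 1 and between 4.48 and 5.51 on the other arrays. Otc (ornithine transcarbamylase) was 6.51 on control 1 and between 3.49 and 4.01 elsewhere. Hpd and Tat, of tyrosine breakdown, reached 8.45 and 8.39 on control 1, and on the other arrays lay between 5.18 and 6.45 (Hpd) and between 5.57 and 6.05 (Tat). Arg1, Otc and Tat thus stood apart on control 1 only, and Hpd also on knockout 6 to a lesser degree. Cyp3a11, a drug-metabolising cytochrome P450, read 7.45, 6.38, 4.72 and 5.78 in the knockouts, against 9.90, 7.20, 6.81 and 4.91 in the controls, and followed the common order. Rgn, the calcium-binding protein regucalcin, ranged over 2.98.

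**Figure D2:**
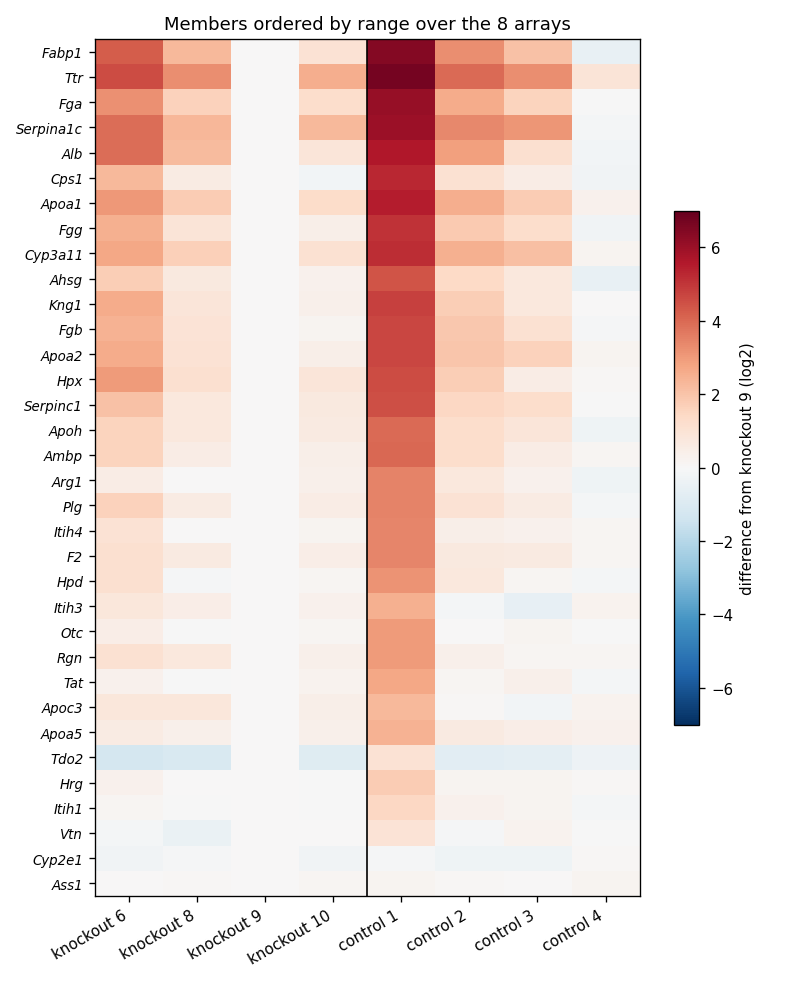
Difference of each member from its level on knockout 9 (log2, colour scale), with genes in rows ordered by their range over the 8 arrays and arrays in columns, knockouts left and controls right of the line. The control 1 column is the darkest for nearly every row, from Fabp1 with a range of 6.93 at the top to Cyp2e1 at 0.41 and Ass1 at 0.21 at the bottom, and Tdo2 stands below its knockout 9 level on every array but control 1.

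A few members kept a level of their own on the arrays where the rest were lowest. Cyp2e1, the ethanol-metabolising cytochrome P450, was steady at 14.12, 14.29, 14.35 and 14.09 in knockouts 6, 8, 9 and 10, against 14.25, 14.06, 14.04 and 14.45 in controls 1, 2, 3 and 4. Its range of 0.41 did not follow the other members; control 4, where the others were near their lowest, was its highest array. It was the only member above the upper quartile of all genes on knockout 9, where 4 members stood above the median of all genes. The other 3 were Alb, Tdo2 and Vtn. Tdo2 barely passed, at 7.60 against a median of 7.59, and its further probe sets read only 6.06 and 4.81 there. Alb was above the median while moving with the rest over a range of 5.78. On control 4 the members above the median of all genes (7.63) were Cyp2e1, Vtn, Alb and Apoc3, with Tdo2 below it at 7.26. Ranks between genes are coarse on arrays, since probe sets differ in brightness.

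Vtn, Tdo2 and Apoc3, and Itih3 above, were singled out after their values were seen. Vtn, the adhesion protein vitronectin, read 8.33, 8.01, 8.48 and 8.52 in knockouts 6, 8, 9 and 10, against 9.45, 8.40, 8.74 and 8.45 in controls 1, 2, 3 and 4. Control 1 was high, control 3 came next, and the 7 arrays other than control 1 lay within 0.72 of each other. A separate Vtn probe set had the same highest and lowest arrays (8.14 on control 1, 6.91 on knockout 8). Tdo2, the first enzyme of tryptophan breakdown, read 6.36, 6.54, 7.60 and 6.76 in the knockouts, against 8.63, 6.87, 6.90 and 7.26 in the controls. Below control 1 its order was turned round, with knockout 9 and control 4 next and knockout 6 lowest. Of its 2 further probe sets, 1 ranged over 2.31 with knockout 9 and control 4 next below control 1, and 1 over 1.91 with knockout 8 lowest.

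Apoc3, an inhibitor of lipoprotein lipase, read 8.28, 8.28, 7.47 and 7.90 in knockouts 6, 8, 9 and 10, against 9.77, 7.56, 7.31 and 7.71 in controls 1, 2, 3 and 4. Knockouts 6 and 8 were level with each other and control 3 was lowest, as for Itih3. Ass1, a urea cycle enzyme, lay between 3.88 and 4.10 on the 8 arrays. Its 1 probe set with a single symbol is dim throughout, so nothing can be said of the gene from it.

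**Figure D3:**
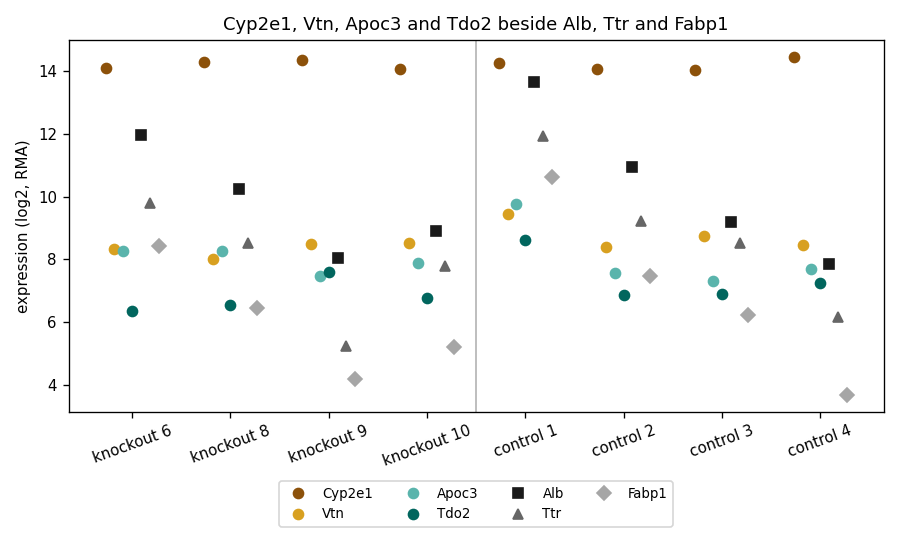
Expression (log2, RMA) on each array of 4 members that did not keep the common order (Cyp2e1, Vtn, Apoc3 and Tdo2, circles) beside Alb (squares), Ttr (triangles) and Fabp1 (diamonds), knockouts left and controls right of the line. Cyp2e1 stays between 14.04 and 14.45 and Vtn between 8.01 and 9.45, while Alb spans 7.87 to 13.64.

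On the linear scale the members did not keep 1 proportion between arrays. Each member's excess over knockout 9, the array with the lowest member median, was expressed as a percentage of its excess on control 1; 31 members were at least 1 above knockout 9 on control 1 and could be used. The median excess was 14.4% on knockout 6, 3.94% on knockout 8 and 2.15% on knockout 10, against 8.49% on control 2, 3.60% on control 3 and -0.039% on control 4. On knockout 6 the quartiles over members were 10.9% and 19.1%. Single members ran from -55.6% for Tdo2 to 31.3% for Hpx, with Alb at 29.8%, Apoa2 at 20.4%, Fgg at 14.4%, Cps1 at 10.1% and Arg1 at 3.97%. Carrier proteins had a median of 26.0% (4 genes), apolipoproteins with Fabp1 19.1% (5), clotting and adhesion proteins 14.0% (8), protease inhibitors 13.4% (6) and amino acid and urea cycle enzymes 4.87% (6). The 11 members at 10 or above on control 1 had a median of 20.4%, the 9 between 9 and 10 had 16.1%, and the 11 below 9 had 9.27%. The deposited values have no detection calls, and the compression of dim or of very bright signals in RMA moves such percentages; how far was not tested.

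Neighbouring arrays in the order differed unevenly. Control 1 exceeded knockout 6 in 34 of 34 members (54.5% of all genes), by a median of 2.19, and knockout 6 exceeded control 2 in 28 (45.7%), by a median of 0.54. Control 2 exceeded control 3 in 29 of 34 (49.1% of all genes, median 0.39). Control 3 and knockout 8 were close, with 20 members higher on control 3 (55.5% of all genes) and a median difference of 0.08, and the single differences ran from -1.04 for Alb and Itih3 to 0.78 for Serpina1c. The members split here. Alb was at 7.56% of its control 1 excess on knockout 8 and 2.57% on control 3, Hpx at 5.14% and 2.03%, whereas Serpina1c was at 6.45% and 12.2%, Apoa2 at 4.10% and 8.23% and Cyp3a11 at 6.11% and 9.24%. Knockout 8 exceeded knockout 10 in 25 of 34 (51.3% of all genes, median 0.16), and knockout 10 exceeded control 4 in 30 (44% of all genes, median 0.29). Knockout 9 and control 4 had no common order over the members, with 16 of 34 higher on control 4 (45.5% of all genes). The median of control 4 minus knockout 9 was -0.018, and single members ran from -0.53 to 0.92.

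**Figure D4:**
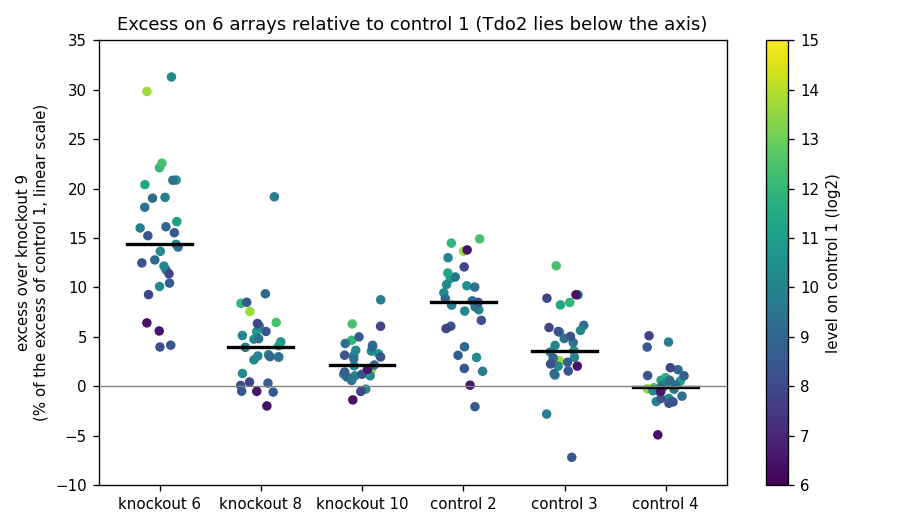
Excess of each of 31 members over its level on knockout 9, in percent of its excess on control 1 (linear scale), on the other 6 arrays, knockouts left and controls right; each point is 1 gene, coloured by its log2 level on control 1, and black bars are medians over all 31. The bars fall from 14.4% on knockout 6 to 3.94% and 2.15% on knockouts 8 and 10, and from 8.49% on control 2 to 3.60% and -0.039% on controls 3 and 4; Tdo2 lies below the axis.

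Other probe sets of the same genes, not used for the values above, mostly had the same highest array. Of the 34 members, 8 had between them 14 further probe sets with a single symbol. Control 1 was the highest array in 13 of these 14. The exception was a probe set of Otc that stayed between 3.09 and 3.30. A further probe set of Fabp1 had a range of 7.08 and the 3 of Apoa1 had ranges of 4.11 to 4.89. For Ttr the 3 further probe sets ranged over 3.34, 7.03 and 7.27, so the size of a swing differed between probe sets of 1 gene. A further probe set of Apoh ranged over 1.01 and had knockout 9 next below control 1, unlike the one used.

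Most measured liver genes outside the list showed the same high array. Of 41 measured genes for other secreted liver proteins, 28 had control 1 as their highest array, and 14 of these had knockout 6 second. Of 35 measured enzymes and transporters 26 had control 1 highest, and 9 of these knockout 6 second. Over all genes the shares were 14.2% for control 1 highest and 1.83% for both. In each of the 2 lists 18 genes stayed below the median of all genes on every array. Control 1 was at least 1 above knockout 9 in 23 genes of each list. Mug1, a plasma protease inhibitor of the alpha-2-macroglobulin family, read 6.81, 5.07, 4.05 and 4.69 in knockouts 6, 8, 9 and 10, against 9.59, 6.11, 5.46 and 3.79 in controls 1, 2, 3 and 4. Apob, the structural protein of low-density lipoprotein, read 6.18, 5.22, 4.47 and 5.16 in the knockouts, against 8.95, 5.88, 5.66 and 4.65 in the controls. Hamp, which encodes the iron hormone hepcidin, ranged over 3.81, Bhmt (betaine-homocysteine methyltransferase) over 5.36, Ugt2b5 over 5.03 and Cyp2c29 over 5.11. F5, clotting factor V, ranged over 3.90 with knockout 10 second. Cfi, of the secreted proteins, kept another order. It read 10.07, 9.90, 8.11 and 9.16 in the knockouts, against 9.57, 8.66, 6.65 and 9.03 in the controls. Knockout 6 was its highest array and control 3 its lowest, as for Fbp1 of the enzymes (range 3.90). Of 338 genes at least 1 higher on control 1 than on knockout 9 (1.86% of all genes), 31 were members; among the 100 with the largest difference 25 were members and 19 stood on the other liver lists.

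Among the 611 genes outside the list with a range of at least 2, the 10 whose levels were most like the members' mean had Pearson correlations of 0.982 to 0.997 over the 8 arrays. They were Cyp3a25, Ugt2b5, Mug1, Apob, Pzp, Fgl1, Hamp, Rdh7, Mup3 and Apof. Without control 1 and knockout 6, the arrays farthest from the median, the correlations were 0.869 to 0.996 over the other 6. The points share the normalisation between arrays, and the correlations are a description.

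Liver transcription factors shared the high array in part. Of 14 measured, 8 had control 1 highest (14.2% of all genes), but in none of these 8 was knockout 6 second. On every array 11 of the 14 stayed below the median of all genes, so their order is read mostly from dim values. Hnf4a, a nuclear receptor that drives hepatocyte genes, was well expressed, with knockout 8 highest. It read 9.36, 9.52, 8.44 and 8.66 in knockouts 6, 8, 9 and 10, against 9.35, 7.90, 6.43 and 9.32 in controls 1, 2, 3 and 4. Control 4, among the lowest for the members, was thus level with control 1 for Hnf4a. Cebpa, which fat cells need as well, was between 12.88 and 13.39 on all arrays. Onecut2 and Foxa3, at 4.10 or below elsewhere, reached 4.95 and 5.06 on control 1.

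Marker genes of other tissues varied over the same arrays, and their part in the members' levels was not tested. Of 17 measured markers of small intestine, which also makes Fabp1, Apoa1 and Cps1, 3 had control 1 highest; 15 stayed below the median of all genes on every array. Fabp2, the gut's own fatty acid carrier, was 6.09 on control 1 and between 3.60 and 4.06 elsewhere. Of 17 measured kidney tubule markers 1 had control 1 highest, and of 13 pancreas markers none did. Some markers of epithelium varied widely in another order: Cdh16 (range 3.88) and Lrp2 (3.56) of the kidney list, Epcam (3.38) of the bile duct markers and Vil1 (3.23) of the intestine list were all highest on knockout 8 and lowest on control 3. Control 3 was also the lowest array for Hnf4a, Apoc3 and Itih3. Of 12 measured epididymis genes 5 had control 1 highest, with Spink8 at 12.54 there and Lcn8 at 11.02 on knockout 8. The log2 of their summed level was 8.36 to 12.54 in knockouts and 8.44 to 12.86 in controls, with knockout 8 and control 1 the high arrays. Markers of Kupffer, sinusoidal, stellate and bile duct cells, the other cells of liver, had control 1 highest in 3 of 17, with summed levels of 11.94 to 12.35 in knockouts and 11.63 to 12.44 in controls. On each array the brightest of the 17 was Epcam, Krt19 or Fcna, and 8 stayed below the median of all genes on every array. The sum thus reads a few of these markers and not the list as a whole. Summed macrophage markers were 13.80 to 14.43 in knockouts and 14.03 to 14.80 in controls. The 4 measured red blood cell markers summed to 10.09 on knockout 9 and 11.07 on control 4, the low arrays of the members, and to 8.16 on knockout 6 and 7.89 on control 1. That sum followed Alas2, the brightest of the 4, at 9.91 on knockout 9 and 10.87 on control 4. Slc4a1 was likewise highest on control 4 with knockout 9 next, and was lowest on knockout 6. Hba-a1 stayed between 3.80 and 4.26 and Epb42 between 4.64 and 5.27 on all arrays. Hba-a1 and Epb42 were below the median of all genes on every array, so little can be read from their narrow ranges. As a measure of RNA quality, the pyruvate carboxylase control read near its 3′ end minus near its 5′ end was 1.60 to 4.65 in knockouts and 1.59 to 4.83 in controls; it was 4.65 on knockout 9, 3.97 on control 1 and 4.83 on control 4.

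Between genotypes no member passed the test. By limma with Benjamini-Hochberg adjustment over all genes, 0 of 34 members had an adjusted p under 0.05 (0% of all genes), and the smallest adjusted p was 0.999. At an unadjusted p under 0.05 the count was also 0 of 34, where all genes gave 2.56%. In no member were the groups free of overlap (1.7% of all genes, 0.682% higher and 1.02% lower in knockout). The fit put 33 of 34 members lower in knockout (53.3% of all genes), by a median of -0.69, where the median of all genes was -0.00818. Cyp2e1 was the 1 member not lower, at 14.21 ± 0.13 in knockout and 14.20 ± 0.19 in control (SD, n = 4 each); knockout minus control was 0.00696 (95% interval -0.25 to 0.26). Alb read 9.79 ± 1.71 in knockout and 10.42 ± 2.49 in control, so that knockout minus control was -0.63 (-3.56 to 2.31). Vtn, with the smallest unadjusted p of the members, read 8.34 ± 0.23 in knockout and 8.76 ± 0.48 in control, a difference of -0.42 (-0.96 to 0.11).

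The size of that difference depended on the arrays used. Without control 1 the median difference was 0.029 and 13 of 34 members were lower in knockout; Alb then stood at 0.45 and Fabp1 at 0.28, against -0.63 and -0.93 over the 8 arrays. Without control 1 and knockout 6 together, an alternative chosen after seeing the data, the median was -0.21 and 30 of 34 members were lower in knockout, with Ttr at -0.80, Serpina1c at -0.57 and Fabp1 at -0.50. Without control 4 the median was -1.18. Within the array set of knockouts 6 and 8 and controls 1 and 2, split off by the lower quartile of all values on an array, the median difference was -1.39. Within the set of knockouts 9 and 10 and controls 3 and 4 it was -0.11. The 95% interval reached a median of 1.75 to either side of the estimate for members and 0.25 for all genes. Over single members it ran from 0.16 for Ass1 to 3.30 for Fabp1, so that the precision differed greatly between them.

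**Figure D5:**
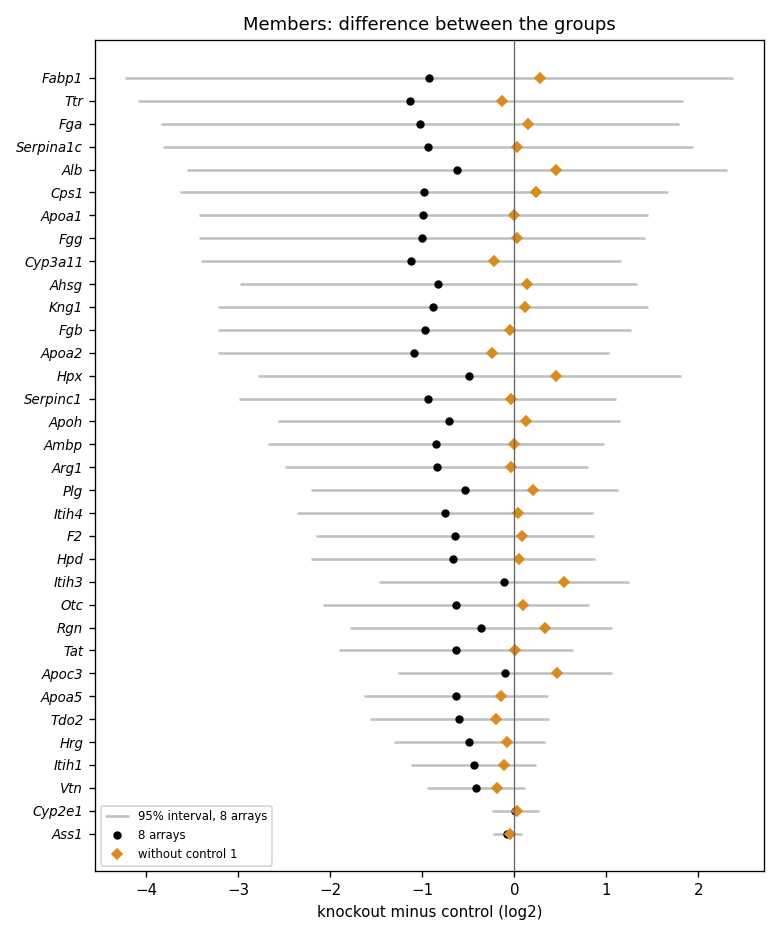
Knockout minus control (log2) for each member, ordered by range: black points are limma estimates over the 8 arrays with 95% intervals as grey lines, and orange diamonds are estimates without control 1. Over the 8 arrays 33 of 34 points lie left of 0, and without control 1 13 of 34 do.

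No gene of the other lists passed either, with 0 of 41 secreted proteins, 0 of 35 enzymes and transporters and 0 of 14 transcription factors past a limma adjusted p of 0.05. Secreted proteins had a median difference of -0.36 (33 of 41 lower in knockout) and enzymes and transporters one of -0.41 (29 of 35 lower). Transcription factors had a median of -0.08 (12 of 14 lower), and Hnf4a differed by 0.74 (95% interval -0.70 to 2.19). Prox1 of that list differed by -0.42, with the smallest unadjusted limma p of all genes (0.00047, adjusted p 0.999). For Prox1 and Nr5a2 (-0.41) the groups did not overlap, lower in knockout, as in 1.02% of all genes.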

How the data were processed

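Per the submitters' processing notes, the deposited log2 values were made by the authors with RMA, a method that subtracts background, equalises the arrays and joins the probes of a set. No version was stated. The table held 45101 probe sets on 8 arrays, with values from 2.71 to 14.83 and no detection calls. After 64 control probe sets were left out, 34945 had 1 platform symbol, 932 several and 9160 none; only the first were named. Each gene took its probe set with the highest mean, giving 18193 genes. Symbols were checked by Entrez number against RefSeq genes on GRCm38.p6, which listed 34741 and changed 0. Upstream sequences are RefSeq's.

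The test of knockout against control used lmFit and eBayes of limma 3.58.1 (R 4.3.3) on all genes, without covariates, with Benjamini-Hochberg adjustment and a threshold of 0.05. Lists, tests and members were chosen with earlier results of these data known. Values on every array were given for the 10 members with the largest range and for those above the upper quartile of all genes on the array where members were lowest; other members singled out are named as such or summarised. Outside the list, the 10 genes most like the members' mean and up to 4 genes of each list with the largest range could be named; others were chosen after their values were seen. Alternatives were a variance trend, a filter on dim genes, 2 renormalisations, averaged probe sets, weighted arrays, unmoderated variances, other thresholds, the array set as a block, another baseline and leaving out each array. In simulated data for the 18193 genes with 50 changed at each size, limma found 43 of those changed 2-fold and 47 of those changed 4-fold, and called 7 unchanged genes. Those counts are for all genes, whose 95% interval reached a median of 0.25 to either side, against 1.75 for the members. In the simulation each gene was drawn on its own, whereas the members moved together on these arrays, so the counts do not carry over to them. How many members changed by such sizes would be found was not tested. Whether the arrays of a group are separate animals is not in the labels. The p-values therefore cover only the spread among these samples, which may be technical, and the number of arrays limits the precision. Figures were drawn with matplotlib 3.10.9.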

Additional observations from a re-analysis of the deposited data

Results flagged for a closer look

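In 10 of 70 sets of 4 arrays (34 members and their median, in each group), 1 array lay far from the other 3 by Dixon's ratio of gap to range. Chance flags about 1 in 20 independent sets, but these sets share their arrays and move together, and the levels were known when the members were chosen, so that rate is no yardstick here and the ratios are a description. In 8 of the 10 it was control 1 that lay high: Otc at 6.51 (other controls 3.49 to 3.73), Itih4 at 8.64 (5.34 to 5.59), Hrg at 7.86 (6.14 to 6.27), Rgn at 9.03 (6.17 to 6.40), F2 at 8.37 (5.11 to 5.63), Apoa5 at 7.84 (5.69 to 6.02), Apoc3 at 9.77 (7.31 to 7.71) and Tat at 8.39 (5.57 to 6.05). In the other two it was knockout 6 that lay high, Hrg at 6.37 (other knockouts 6.05 to 6.09) and Hpd at 6.45 (5.26 to 5.45). Members with a graded spread over the arrays, such as Alb, were not picked out.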

How the results depend on the processing

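No gene and no member was called under any alternative run, the unmoderated test per gene included. The median difference over the members was -0.69 and ran from -1.18 to 0.029 when 1 array was left out, the highest without control 1; the counts of genes and of members called ran from 0 to 0. The difference changed sign over those fits for Alb (-1.47 to 0.45), Fabp1 (-2.03 to 0.28), Serpina1c (-2.01 to 0.025), Cps1 (-1.63 to 0.23), Apoc3 (-0.36 to 0.46) and Cyp2e1 (-0.047 to 0.090), and kept it for Ttr (-2.06 to -0.14), Vtn (-0.54 to -0.19) and Tdo2 (-0.86 to -0.20). Cyp2e1 also turned to -0.00866 when array medians were subtracted and to -0.029 within knockouts 9 and 10 and controls 3 and 4. Within those arrays, a choice made after seeing the data, Tdo2 was 0.10 and Apoc3 0.18; without control 1 and knockout 6, also chosen later, Apoc3 was 0.36. With dim genes left out, 2 members stood above the median of the remaining genes on knockout 9 in place of 4, because the median of the brighter genes is higher. The median excess percentages moved by less than their spread over members under each alternative. No paired analysis was possible because the replicate numbers of the groups are not shared.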

Other observations

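Probe sets shared between genes were left out of every comparison above. The one shared by Ass1 and its copy Gm5424 read 8.18, 8.22, 7.22 and 7.55 in knockouts 6, 8, 9 and 10, against 9.07, 7.38, 7.05 and 7.88 in controls 1, 2, 3 and 4. Control 1 was highest and control 3 lowest, as for Apoc3 and Itih3, and no array fell near the 3.88 to 4.10 of the Ass1 probe set with a single symbol. The one shared by Serpina1e, Serpina1c and Serpina1b read 7.71, 5.04, 5.36 and 5.61 in the knockouts, against 7.01, 6.77, 5.36 and 4.32 in the controls. There knockout 6 stood above control 1, unlike the probe set of Serpina1c.

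Several liver-made secreted proteins outside the list were at high, steady levels in this fat, picked out after their values were seen. Haptoglobin (Hp), which binds free haemoglobin, was 14.02 ± 0.05 in knockout and 13.84 ± 0.04 in control (SD, n = 4 each). The groups did not overlap, as in 1.7% of all genes (0.682% higher in knockout), and the limma adjusted p was 0.999. On the same list the groups of C8b, Saa4 and Lcat did not overlap either, and these genes were lower in knockout. Apoe lay between 14.06 and 14.27 over the 8 arrays and Rbp4, the retinol carrier, between 12.10 and 12.87, with no rise on control 1 above the other arrays.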
